A study of Mus musculus with 2 samples.

Results

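A set of 36 aminoacyl-tRNA synthetase genes, 20 cytosolic and 16 mitochondrial, was examined for H3K4me3 at transcript starts in lung group 2 innate lymphoid cells (ILC2s). The genes were chosen by symbol, as autosomal protein-coding genes of the GENCODE mouse annotation named with a single amino acid letter followed by ars, with the endings 2, a or b allowed, together with Eprs, and the 36 described here were part of 20807 autosomal coding genes. A start peak was a deposited H3K4me3 peak within 1000 bp of any annotated transcript start of a gene. A start peak was present for 35 of the 36 genes in offspring of control mothers and for 32 of 36 in offspring of asthmatic mothers. Lars2, Mars and Nars2 had one in offspring of control mothers only, none of the genes had one in offspring of asthmatic mothers only, and Lars had none in either.

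Aminoacyl-tRNA synthetases join each amino acid to its tRNA, the step that makes the genetic code readable by the ribosome. Cytosolic enzymes serve cytoplasmic translation, and several of them sit together in the multisynthetase complex on scaffold proteins, while a separate set of nuclear genes encodes enzymes that are imported to charge the tRNAs of mitochondria. When charging falls, the kinase GCN2 (Eif2ak4) senses uncharged tRNA and ATF4 raises transcription of many cytosolic synthetase genes, in part through elements that bind C/EBP and ATF factors. H3K4me3 is a histone mark of nucleosomes next to active or poised transcript starts.

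Chromatin came from about 3000 lung ILC2s a library, sorted as CD45+, lineage negative and ST2+, from 8-week-old mice. The mothers had been sensitised before mating with untreated males, with PBS in alum (control group) or 100 µg ovalbumin (OVA) in alum (asthmatic group). Between gestation days 4 and 17 they were given repeated intranasal doses, of PBS in the control group and of 500 µg OVA in the asthmatic group. The labels name no treatment of the offspring themselves. There was 1 library a group, so no difference between groups has a replicate and no test was possible. H3K4me3 was profiled by CATCH-seq, a carrier-assisted ChIP-seq on native chromatin cut with micrococcal nuclease, and the library of offspring of control mothers (the control library below) held 42126 peaks, that of offspring of asthmatic mothers (the maternal asthma library) 51610. The lowest background solved from the deposited folds and p-values was 1.83 and 1.57 fragments. Scaled by the smallest peak width of each list, 190 and 156 bp, this was 96.1 and 100.4 fragments per 10 kb. The median summit held 21 and 18 fragments, and 12446 and 9927 of the peaks were start peaks of autosomal coding genes. Of 10 ILC2 markers 8 and 5 had a start peak, beside 52.5% and 43.7% of all autosomal coding genes. Rora, Il1rl1, Areg, Id2 and Il2ra had one in both lists, Gata3, Il7r and Il5 in the control library only, and Il13 and Klrg1 in neither. None of the T cell, B cell, macrophage, neutrophil and fibroblast markers had one, while 2 of 4 epithelial markers and 1 of 4 endothelial markers had one in the control library and none in the maternal asthma library, and the part of such cells in the results was not tested.

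The promoters that carried the clearest patterns are shown as the 250 bases before the RefSeq start (GRCm38.p6), written 5′ to 3′ on the strand of the synthetase gene. Kars and Yars had the widest domains of the cytosolic genes, Ears2 and Fars2 those of the mitochondrial genes, and Lars2 and Nars2 had the strongest control peaks among the genes with no start peak in the maternal asthma library. Capitals mark matches, on either strand, to the CCAAT box, to TATAAA of the TATA box, to the ETS letters CCGGAAGT, the YY1 letters AAGATGGCG, the NRF1 letters GCGCANGCG, CACGTG of the E-box, or the amino acid response letters TGATGNAA. The windows lie at chr8:112011355-112011604 (minus strand), chr4:129189653-129189902 (plus), chr7:122067087-122067336 (minus), chr13:36117393-36117642 (plus), chr9:123366677-123366926 (plus) and chr7:96951277-96951526 (plus).
Kars: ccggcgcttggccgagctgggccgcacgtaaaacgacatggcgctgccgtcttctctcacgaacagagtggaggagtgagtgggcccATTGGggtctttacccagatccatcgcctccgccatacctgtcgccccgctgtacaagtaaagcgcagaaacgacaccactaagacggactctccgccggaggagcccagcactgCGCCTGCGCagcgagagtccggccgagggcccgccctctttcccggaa
Yars: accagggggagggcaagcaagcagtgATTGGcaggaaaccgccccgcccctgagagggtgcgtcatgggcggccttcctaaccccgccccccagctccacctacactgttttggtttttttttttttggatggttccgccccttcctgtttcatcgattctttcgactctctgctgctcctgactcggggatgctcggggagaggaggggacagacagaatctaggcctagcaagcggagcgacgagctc
Ears2: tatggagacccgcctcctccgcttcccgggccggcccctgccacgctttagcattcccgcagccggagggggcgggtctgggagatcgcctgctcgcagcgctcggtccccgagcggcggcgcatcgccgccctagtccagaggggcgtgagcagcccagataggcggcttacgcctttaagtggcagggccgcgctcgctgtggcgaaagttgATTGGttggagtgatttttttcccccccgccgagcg
Fars2: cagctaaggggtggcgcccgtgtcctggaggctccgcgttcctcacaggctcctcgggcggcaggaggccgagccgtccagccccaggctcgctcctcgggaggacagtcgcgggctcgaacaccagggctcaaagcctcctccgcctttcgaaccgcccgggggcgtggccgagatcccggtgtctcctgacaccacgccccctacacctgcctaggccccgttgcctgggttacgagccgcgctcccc
Lars2: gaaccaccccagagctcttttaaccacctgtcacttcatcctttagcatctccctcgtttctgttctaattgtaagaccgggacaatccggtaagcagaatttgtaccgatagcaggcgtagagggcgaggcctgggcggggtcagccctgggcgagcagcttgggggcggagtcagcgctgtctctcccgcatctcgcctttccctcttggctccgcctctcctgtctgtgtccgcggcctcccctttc
Nars2: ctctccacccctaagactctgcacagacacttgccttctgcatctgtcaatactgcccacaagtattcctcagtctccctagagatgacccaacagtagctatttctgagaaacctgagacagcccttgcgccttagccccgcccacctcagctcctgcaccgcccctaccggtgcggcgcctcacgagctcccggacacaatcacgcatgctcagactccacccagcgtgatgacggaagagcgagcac
Kars held a CCAAT match and an NRF1 match, Yars and Ears2 a CCAAT match each, and the sequences of Fars2, Lars2 and Nars2 no match to these letters.

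Nearly all of the synthetase genes were marked, more often than coding genes in general when each list was taken whole. In the control library the share was 97.2% (35 of 36, exact Clopper-Pearson 95% interval 85.5 to 99.9%), beside 52.5% of all autosomal coding genes. In the maternal asthma library it was 88.9% (32 of 36, 73.9 to 96.9%), beside 43.7% of all genes. Both lists held a start peak for 32 of 36 genes, against 43.1% of all genes, and the intervals here and below cover counting error only. When each list was limited to its 10000 strongest peaks by −log10 p, the shares fell to 83.3% in the control library, beside 33.8% of all genes, and 16.7% in the maternal asthma library, beside 9.82%, where 6 of 20 cytosolic and 0 of 16 mitochondrial genes had one. Genes with CpG-rich promoters were marked more often than genes in general, and the synthetase genes with such promoters were compared with them. Of the 22 synthetase genes whose promoter window had a CpG ratio (observed over expected CpG) of at least 0.6, 22 (100%, 84.6 to 100%) and 19 (86.4%, 65.1 to 97.1%) had a start peak, against 83.5% and 71.4% of the 8427 genes with such a window, the second of which lies inside its interval.

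**Figure D1:**
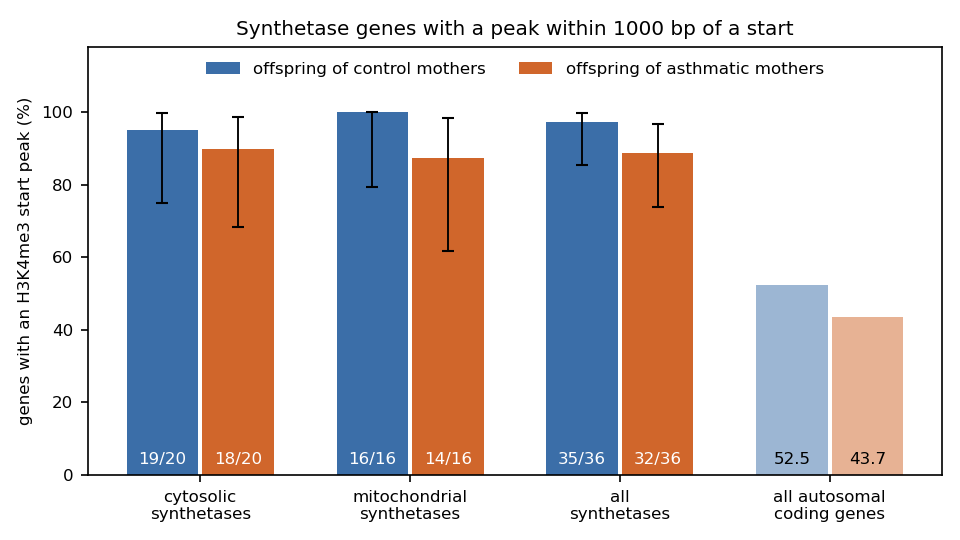
Share of genes with an H3K4me3 peak within 1000 bp of a start (y axis, %) in the control library (blue) and the maternal asthma library (orange), with exact 95% Clopper-Pearson intervals for the synthetase genes and the number of genes in each bar. The synthetase bars lie between 87.5% and 100%, above the 52.5% and 43.7% of all autosomal coding genes.

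The mark was found in cytosolic and mitochondrial genes alike. Among cytosolic genes 19 and 18 of 20 had a start peak (95%, 75.1 to 99.9%, and 90%, 68.3 to 98.8%). Among mitochondrial genes the counts were 16 and 14 of 16 (100%, 79.4 to 100%, and 87.5%, 61.7 to 98.4%). These intervals overlapped, so a difference between the compartments was not detectable with this number of genes. Of the 8 members of the multisynthetase complex, Dars, Eprs, Iars, Kars, Lars, Mars, Qars and Rars, 7 and 6 had a start peak, and the genes without one were Lars and Mars. All 12 other cytosolic genes were marked in both lists. Gars and Kars, which each encode the enzyme of both compartments, were counted as cytosolic and were marked in both.

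Lars, the cytosolic leucyl enzyme, stood alone among the 36. None of its 9 annotated starts lay near a peak, and the nearest peaks were 13156 bp away in the control library and 13229 bp away in the maternal asthma library. Of the 1001 bases around its 5′ end 5 were repeat-masked, beside a median share of 7.09% over the 36 genes. The mitochondrial leucyl enzyme gene, Lars2, was by contrast among the most strongly marked in the control library.

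Of the 36 genes, 8.33% (3, interval 1.75 to 22.5%) had a start peak in the control library only, close to the 9.37% of all genes, and none had one in the maternal asthma library only, as for 0.634% of all genes. Among genes with a control start peak, the control-only genes were 3 of 35 synthetase genes and 1949 of 10917 of all genes. The 3 genes differed in how strong the control peak was. Mars, the cytosolic methionyl enzyme, had the weakest control peak of all members. It lay at chr10:127311493-127311682, was 190 bp wide (the smallest width in that list) and held 14 fragments at its summit (exact Poisson interval 7.65 to 23.5) with a −log10 q of 5.97. Such a peak was often not matched, since 65.8% of all genes in the same decile of control peak strength, the weakest, had no start peak in the maternal asthma library.

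The other two, both mitochondrial, had control peaks of a strength that was rarely lost. The peak of Lars2 at chr9:123366884-123367222 was 339 bp wide, held 33 fragments (22.7 to 46.3) and had a −log10 q of 25.9, in decile 10 (the strongest) of genes, where 1.83% had no start peak in the maternal asthma library. Nars2, the asparaginyl enzyme, had a peak of 417 bp at chr7:96951563-96951979 with 28 fragments (18.6 to 40.5) and a −log10 q of 20.0, in decile 9, where 3.02% had none. The peaks nearest to their starts in the maternal asthma library were 7054 bp (Lars2) and 1703 bp (Nars2) from any annotated start, but neither lay near the unmarked 5′ end, that of Lars2 lying in the exon at the 3′ end of the gene, 95058 bp from the 5′ end, and that of Nars2 inside the gene with its summit 70331 bp from the 5′ end, in repeat-masked intron sequence. For comparison, the weakest start peak of any gene in that list held 8 fragments. The absence of a peak says only that none passed the caller's threshold, not that the mark was absent.

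**Figure D2:**
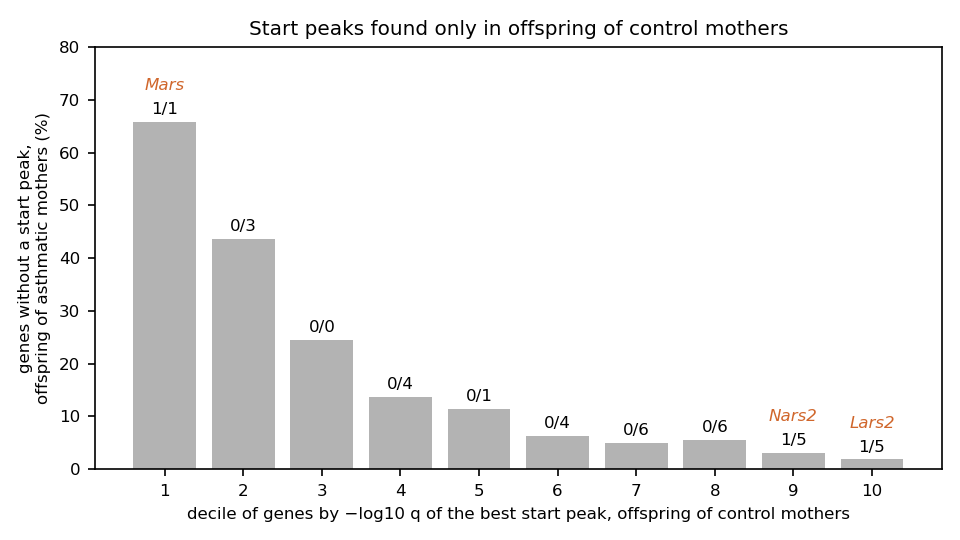
Share of all genes with no start peak in the maternal asthma library (y axis, %) by decile of the −log10 q of their best start peak in the control library (x axis, weakest at 1). The fractions over the bars give the synthetase genes without such a peak of all in the decile, with Mars in decile 1 and Nars2 and Lars2 in deciles 9 and 10.

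The peak at the 3′ end of Lars2 was present in both lists. In that exon, 661 and 681 bp from the end of the gene, the control library had a summit with 97 fragments and a −log10 q of 99.3, and the maternal asthma library one with 74 fragments and a −log10 q of 71.0. Their percentiles among all peaks of the list were 99.87 and 99.85, so this end of the gene had a peak in the library in which its start had none. No input and no measure of how reads map there were examined, so whether this signal reflects H3K4me3 was not tested. Aars had exonic peaks within 1249 bp of its 3′ end in both lists, with 32 fragments in the control library and 18 at the stronger of a pair in the maternal asthma library. Starts of other genes near the 3′ ends of Aars and Lars2 were not searched, so these peaks were not assigned to a gene. All of the other peaks within synthetase genes away from starts, 11 of 13 in the control library and 16 of 19 in the maternal asthma library, lay in introns with a summit on a repeat-masked base, and Fars2, with 608869 bp the longest gene, held 6 and 9 of them.

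Where a start was marked in both lists, its domain was narrower in the maternal asthma library. A domain was the span of peaks at most 1000 bp apart. The smallest peak was 190 bp wide in the control list and 156 bp in the maternal asthma list. The part of this unequal floor in the widths and fragment counts compared between libraries was not tested. Its median width over the synthetase genes was 618 bp in the control library (n = 35, order-statistic 95% interval 472 to 776 bp) and 322 bp in the maternal asthma library (n = 32, 213 to 428 bp), beside 667 and 410 bp over all genes with a start peak. The domain was narrower in 32 of 32 genes, but also in 92.3% of all genes marked in both lists. The median of the width ratio was 0.584 for the synthetase genes (0.431 to 0.677), and 0.664 for all genes, which lies inside that interval.

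**Figure D3:**
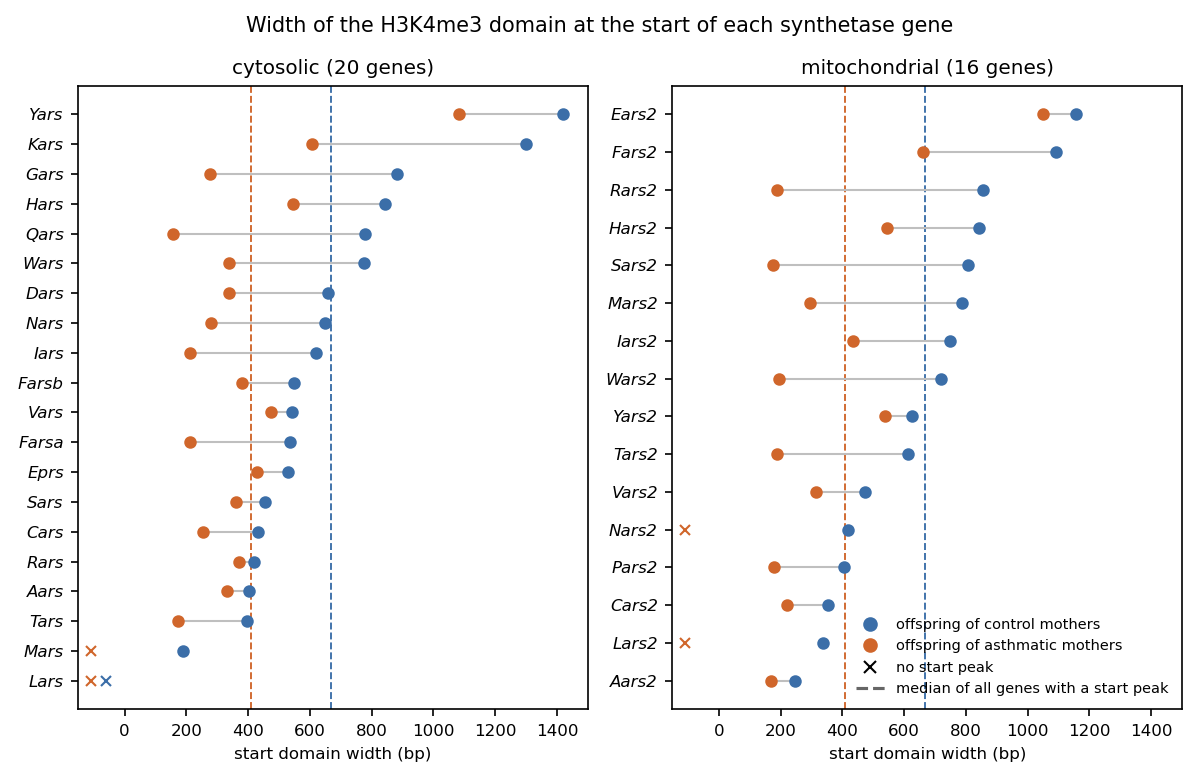
Width of the H3K4me3 domain at the start of each synthetase gene (x axis, bp) in the control library (blue) and the maternal asthma library (orange), genes ordered by the control width, with dashed lines at the medians of all genes with a start peak (667 and 410 bp). Crosses left of 0 mark genes without a start peak, and each gene with both points is narrower in the maternal asthma library.

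The 4 widest domains belonged to the same genes in both lists, and each of these had another coding gene starting beside it. Yars, the tyrosyl enzyme, had a domain of 1419 bp in the control library and 1082 bp in the maternal asthma library. Kars, the lysyl enzyme, had 1300 and 606 bp. Ears2, the mitochondrial glutamyl enzyme, had 1157 and 1050 bp, and Fars2, the mitochondrial phenylalanyl enzyme, 1091 and 661 bp. The next widest was Gars in the control library (883 bp, then 276 bp) and the domain shared by Hars and Hars2 in the maternal asthma library (546 bp, from 842 bp in the control library). The narrowest control domains were those of Mars (190 bp) and the mitochondrial alanyl enzyme gene Aars2 (248 bp, then 168 bp).

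Of the 36 genes 9 (25%, 12.1 to 42.2%) had the start of a coding gene on the opposite strand within 1000 bp, against 12.7% of all genes, and in 7 of the 9 the starts were divergent. Hars and Hars2, the cytosolic and mitochondrial histidyl enzymes, were each other's partner, with starts 26 bp apart, so that 1 pair of peaks stood for both. The other divergent partners were Terf2ip (75 bp from Kars), Wdr25 (98 bp from Wars), S100pbp (33 bp from Yars), Orc3 (13 bp from Rars2) and Mrps12 (172 bp from Sars2), the last a protein of the mitochondrial ribosome. Ears2 overlapped the 5′ end of Ubfd1 by 55 bp, and Fars2 that of Lyrm4 by 114 bp. Cars, Eprs and Nars2 had the divergent start of a noncoding transcript on the opposite strand, at 44, 179 and 25 bp, and Iars2 that of a transcript of unsettled type at 55 bp. A peak between such starts cannot be assigned to either gene.

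In the control library 8 of these 9 genes had more than 1 start peak (88.9%, 51.8 to 99.7%), against 3 of the 26 other marked synthetase genes (11.5%, 2.45 to 30.2%). Hars and Hars2 share the same peaks but are counted as separate genes in this paragraph, so the intervals treat them as independent when they are not. Over all genes the shares were 55.7% with an opposite-strand start and 20.9% without. The domains were 776 to 1419 bp wide with a median of 855 bp, against a median of 532 bp in the other synthetase genes. For Hars, Kars, Yars and Rars2 the peaks flanked the starts, and the stretch between the paired starts was itself outside any peak. In the maternal asthma library 5 of the 9 genes (55.6%, 21.2 to 86.3%) still had more than 1 start peak and none of the 23 others did, beside 39.0% and 18.1% of all genes with and without an opposite-strand start.

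**Figure D4:**
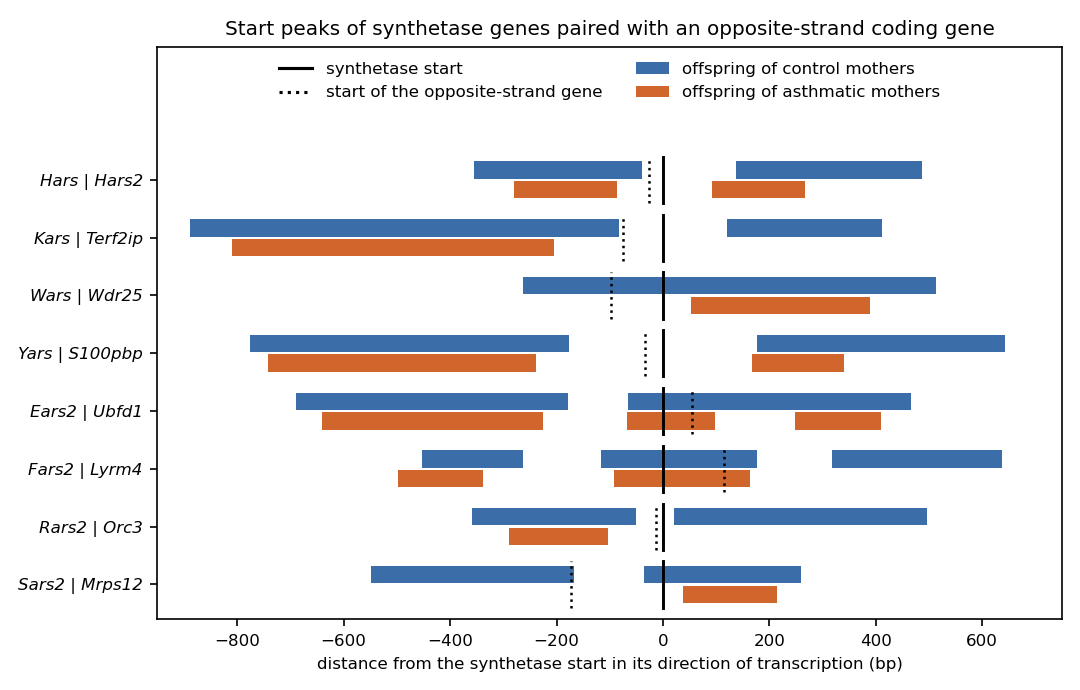
Start peaks of the synthetase genes that have an opposite-strand coding start within 1000 bp, as bars along the distance from the synthetase start in its direction of transcription (x axis, bp), for the control library (blue) and the maternal asthma library (orange). Solid and dotted lines mark the synthetase start and that of its partner, and Hars2 is shown with Hars. The bars over Kars and Rars2 downstream of their starts, and the bar of Fars2 farthest downstream, are present in the control library only.

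At several of these loci 1 flank was marked in both groups and the other in the control library only. At Kars the peak on the side of Terf2ip was listed in both, with 28 fragments and then 14, while the peak over the Kars gene body, with 23 fragments in the control library, had no counterpart. At Rars2 the control library had 30 fragments on the side of Orc3 and 31 on that of Rars2, and the other library 12 fragments on the side of Orc3 alone. At Sars2 it was the peak over Sars2 that was found in both, with 27 and then 17 fragments, and the one over Mrps12, with 18, in the control library alone. At Fars2 the control peak farthest downstream, at chr13:36117729-36118049 with 25 fragments, also had no counterpart. Yars had both flanks in both lists, with 33 and 31 fragments in the control library and 24 and 14 in the maternal asthma library.

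Starts within 1 gene were marked singly. Most synthetase genes had annotated starts in several places, up to 29 starts for Qars, yet Vars2, the mitochondrial valyl enzyme, was the only gene with peaks at separate starts more than 1000 bp apart. In the control library its peaks at chr17:35662419-35662865 and chr17:35667099-35667570 held 20 and 21 fragments, and the summit of the first was on a repeat-masked base. In the maternal asthma library only the second was listed, with 17 fragments.

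By the −log10 q of the best start peak, the synthetase genes stood somewhat above marked genes in general in the control library. In the maternal asthma library they stood close to them, with the value of all marked genes inside the interval. Their median percentile among all peaks was 88.9 in the control library (84.6 to 92.5) and 63.9 in the maternal asthma library (54.9 to 78.2), beside 83.1 and 61.2 over all genes with a start peak. Among marked genes alone, the median was at the percentile 66.2 in the control library (54.3 to 77.9) and percentile 53.3 in the maternal asthma library (42.5 to 73.7). The median −log10 q was 16.2 and 8.48, in that order.

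The highest control values were those of Tars2, the mitochondrial threonyl enzyme, with a −log10 q of 29.4 and 38 fragments, Farsa, a subunit of the phenylalanyl enzyme, with 26.8 and 36, Lars2 with 25.9 and 33, the arginyl enzyme gene Rars with 24.7 and 35, and Eprs, the glutamyl-prolyl enzyme, with 21.6 and 34. In the maternal asthma library the same quantities for Tars2 were 10.6 and 18, for Farsa 8.47 and 16, for Rars 13.6 and 21, and for Eprs 8.41 and 16. Rars was thus the gene with a place among the 5 highest of both lists. The other high values in the maternal asthma library were those of the alanyl enzyme gene Aars (16.9 and 24 fragments), Yars (13.2 and 24), Dars (12.6 and 20) and, with equal values, Cars and Gars (11.5 and 19).

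The lowest control values after Mars were those of Vars, the valyl enzyme (−log10 q 7.57, with 29 fragments over a solved background of 6.71, beside 1.83 at the lowest of that list), Mars2 (7.69, 19 fragments), Vars2 (8.19, 20 fragments) and Wars2 (11.7, 20 fragments). In the maternal asthma library Qars, the glutaminyl enzyme of the multisynthetase complex, was lowest, with a −log10 q of 3.62, 10 fragments and a width of 158 bp where the control domain had 24 fragments and 779 bp. Wars2 (4.38, 11 fragments), Kars (5.16, 14 fragments), Rars2 (5.17, 12 fragments), Mars2 and Wars (both 6.00, 13 fragments) followed.

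Within each list the genes were also ranked by their best start peak, among 10917 marked genes in the control library and 9100 in the maternal asthma library, so that a difference in percentile is between ranks in unequal sets and has no replicate. The best peaks of the lists overlapped each other in 27 of 32 genes (84.4%), against 90.7% of all genes, and in Ears2, Hars, Hars2, Rars2 and Vars2 they were different peaks. The percentile in the maternal asthma library minus that in the control library was −74.9 points for Rars2, −52.0 for Qars and −50.3 for Wars, the tryptophanyl enzyme. At Rars2 the best control peak was that over the gene and the peak of the maternal asthma library the one on the side of Orc3. At the other end the difference was 45.7 points for Aars and 41.6 for Vars, and 53.0 for Vars2, whose best control peak and peak in the maternal asthma library were at separate starts. Aars was the gene with the same number of fragments in both libraries, 24 and 24. The median difference was −5.06 points for the synthetase genes and −4.59 for all genes, and −11.3 and −5.01 over the genes whose best peaks overlapped. These ranks rest on 10 to 38 fragments a summit. The ratio of fragments of the maternal asthma library to the control library had a median of 0.60 (0.550 to 0.692) over the 32 genes, and 0.611 over all genes. It ran from 0.387 for Rars2, where 12 fragments on the side of Orc3 were set against 31 over the gene, to 1.00 for Aars, and from 0.417 (Qars) over the 27 genes whose best peaks overlapped. For 0 of the 32 did the exact interval of the ratio lie wholly off the median of all genes, against 0.145% of all genes below and 0.736% above it, so no synthetase gene was told apart from the general shift at this depth. At least 1 start peak overlapped between the lists by 1 bp or more in all 32 genes, as in 99.2% of all genes, and the −log10 q was lower in the maternal asthma library in 29 of 32, against 94.1% of all genes.

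Summits lay just inside the genes. The best peak had its summit a median of 103 bp downstream of the nearest start in the control library and 106.5 bp in the maternal asthma library, beside 114 and 109 bp over all genes. It was downstream in 30 of 35 and 27 of 32 genes, beside 75.4% and 74.7% of all genes, and the exceptions in the control library were Hars, Kars, Yars, Cars2 and Ears2, of which all but Cars2 had a coding gene starting on the opposite strand. At least 1 start peak covered an annotated start in 29 of 35 genes (82.9%) in the control library and in 15 of 32 (46.9%) in the maternal asthma library, beside 74.0% and 49.5% of all genes.

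A promoter window, 250 bases before to 50 after the RefSeq start, was at hand for 27 of the 36 genes and for 15688 autosomal coding genes. Cars, Hars, Hars2, Lars, Nars, Pars2, Rars, Vars and Wars had none. Matches to the amino acid response letters TGATGNAA were found in 5 of 13 cytosolic windows (38.5%, 13.9 to 68.4%) and in 0 of 14 mitochondrial windows (upper limit 23.2%), against 3.79% of all windows. On the strand of the gene the match read TTGCATCA from −112 to −105 and TTTCATCA from 9 to 16 in Aars, counted from the start as 0. It read TTTCATCA from −30 to −23 in Gars, TTGCATCA from 7 to 14 in Iars, TTGCATCA from −15 to −8 in Tars, the threonyl enzyme, and TGATGCAA from 3 to 10 in Yars. Those of Aars, Iars and Tars were in windows that also held an E-box.

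These 5 genes had a start peak in both lists, as did all but Lars and Mars of the cytosolic genes. Their fragments were 24 and 24 for Aars, 26 and 19 for Gars, 28 and 15 for Iars, and 24 and 14 for Tars, control library first. For Yars they were 33 and 24 at the best peak, on the side of S100pbp, and 31 and 14 at the peak over Yars, which began downstream of the match in both lists.

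The other motifs, searched on both strands, were spread over both compartments. YY1 letters were in 4 of 27 windows, Farsa, Aars2, Wars2 and Yars2, against 2.24% of all windows, and in the last 3, all mitochondrial, they lay downstream of the start, in Aars2 as a single match, from 10 to 18 counted from the downstream of its RefSeq starts. NRF1 letters were in 7 of 27 against 10.2%, E-box letters in 5 of 27 against 9.22%, and ETS letters in 3 of 27 against 6.05%. GGGCGG (GC box) was in 19 of 27 against 51.7%, CCAAT in 13 of 27 against 41.7%, and TATAAA in 3 of 27 against 14.4%. The median GC content was 57.7%, beside 58% of all windows, and the median CpG ratio 0.739 beside 0.644. A match is a run of letters and not a bound site.

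**Figure D5:**
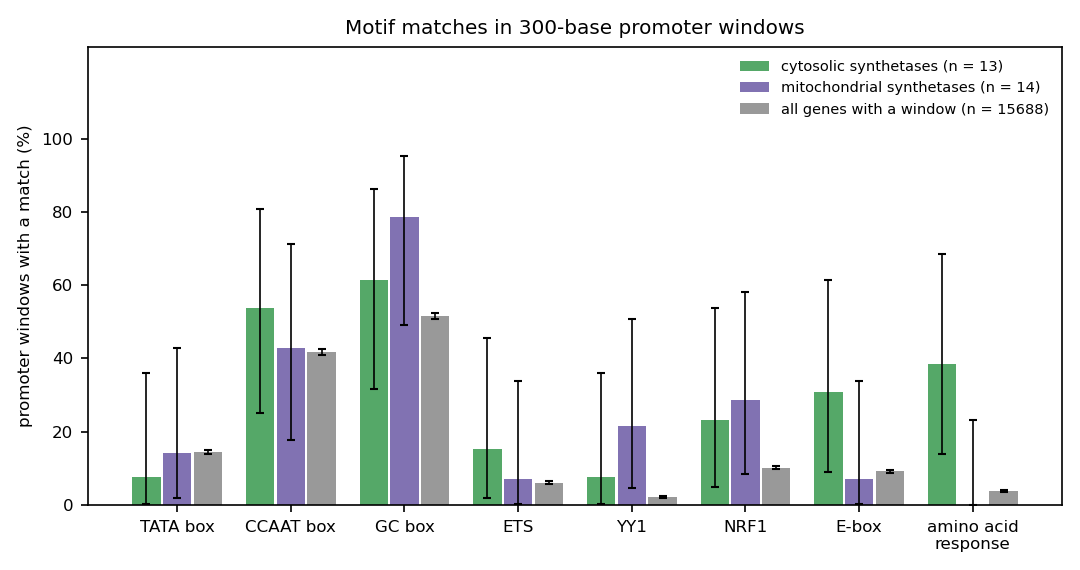
Share of promoter windows of 300 bases with a match to each motif on either strand (y axis, %), for cytosolic (green, n = 13) and mitochondrial (purple, n = 14) synthetase genes and all autosomal coding genes with a window (grey, n = 15688), with exact 95% intervals. The amino acid response letters are in 38.5% of cytosolic and 0 of 14 mitochondrial windows, and the wide intervals follow from the small numbers of genes.

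Other genes of tRNA charging were also mostly marked. All 17 of a list of scaffold, editing, indirect charging and delivery genes had a start peak in the control library and 13 in the maternal asthma library, beside 52.5% and 43.7% of all genes, and the 4 in the control library only stood beside 9.37%. The 4 without the second were Prorsd1 and Tarsl2, both related to synthetases, Qrsl1, a subunit of the amidotransferase that makes mitochondrial glutaminyl-tRNA, and Tufm, the mitochondrial elongation factor that delivers charged tRNA. Tufm had 32 fragments and a −log10 q of 18.9 in the control library. The scaffold genes of the multisynthetase complex, Aimp1, Aimp2 and Eef1e1, were marked in both, with 25 and 19, 28 and 15, and 26 and 23 fragments. Of the 17 amino acid response genes found, 15 and 11 had a start peak, again beside 52.5% and 43.7% of all genes. Eif2ak4 (25 and 11 fragments) and Atf4 (31 and 21) had one in both lists. Asns, Chac1, Ddit3 and Psat1 had one in the control library only, with 15, 22, 20 and 22 fragments. Asns is the asparagine synthetase gene. These 4 of 17 stood beside 9.37% of all genes.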

How the data were processed

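H3K4me3 peaks of 2 libraries of lung ILC2s were analysed. Reads were trimmed by the authors, mapped to mm10 using Bowtie2 and cleared of duplicates; the peak caller and any use of an input are not given in the sources used here, and the study's reporting form states that no peaks were called on the ChIP-seq data. The authors' deposited columns are a score, a fold (ratio of summit signal to background) and the −log10 of the p-value and q-value of each peak; none is scaled between libraries, so ranks were taken within a list. Fragments at a summit were solved from fold and −log10 p under a Poisson model with 1 added to signal and background, which assumes calling without a control; 884 of 884 simulated summits were recovered, and 950 of 950 simulated overlap queries. Positions are on GRCm38, counted from 1, with GENCODE vM21 starts. Intervals are exact at 95%. Of the 37 genes that matched the choice by symbol, 1 is not reported here. The members and the lists were chosen with earlier results of these data known. Genes given in full were those with a start peak in 1 list or neither, the 5 widest domains, the 5 highest and 5 lowest −log10 q of each list, genes with separate marked starts, paired starts or TGATGNAA. Python 3.11.15, numpy 2.4.6, pandas 2.3.3, scipy 1.17.1, pysam 0.24.0 and matplotlib 3.10.9 were used.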

Additional observations from a re-analysis of the deposited data

How the results depend on the processing

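Of the 55 alternatives computed, 49 left the value within its interval or within 1.5 times its count. Taking the 10000 peaks of highest −log10 p of each list moved the share of synthetase genes with a start peak from 97.2 to 83.3% in the control library and from 88.9 to 16.7% in the maternal asthma library, with 30% of the cytosolic and 0% of the mitochondrial genes and 6 genes in both lists (Aars, Cars, Dars, Gars, Rars and Yars), while over all genes the shares became 33.8 and 9.82%. Ranked among start peaks alone the median control percentile was 73.6. With a distance of 2000 bp Nars2 gained a peak in the maternal asthma library (summit 70331 bp from its 5′ end), with the 5′ end of each gene as its sole start Tars2 lost its peak in both, and with a −log10 q of at least 5 Qars and Wars2 lost theirs in the maternal asthma library alone. Restricting the fragment ratio to genes whose best peaks overlap, chosen after seeing the data, gave a median of 0.593. No paired analysis was possible because each group had a single library. Fragment counts of 10 to 38 a summit limit what can be told apart between single genes.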
